A study of Mus musculus with 12 samples.

Results

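The difference between the injury responses of EphA4 knockout and wild-type spinal cords was measured for every gene, as the injured minus sham-operated level in knockout mice less the same quantity in wild-type mice. All 12 arrays of the series entered it, in 4 groups of 3 mice, and 15830 of 15830 genes had a value. A negative difference means that a gene rose less, or fell more, in the knockout. The mice were littermates on a C57/BL6 background, either wild-type or constitutive EphA4 knockouts, which lack the receptor in every tissue and from development onwards. Injured mice had received a left-sided lumbar hemisection and sham-operated mice a laminectomy only, and tissue centred on the lesion, or its equivalent, was taken from the left side 4 days later. The labels gave ages of 9 to 14.5 weeks, 2 males and 1 female in each group, and 4 batches of RNA extraction. Each RNA came from 1 mouse and was hybridised to 1 Affymetrix mouse exon array. A gene level was the mean log2 intensity of the probesets that name only that gene.

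EphA4 is a receptor tyrosine kinase of the Eph family. On binding ephrins on a neighbouring cell it steers growth cones, usually by repulsion, and in the spinal cord it is needed for the wiring of descending and local motor circuits. Hemisection of the cord is followed within days by activation of microglia, entry of blood-borne monocytes that become macrophages, reaction and division of glia, deposition of scar matrix and silencing of neuronal genes. Whole-tissue RNA reports all of these at once, so fewer cells of a type and less RNA per cell cannot be told apart here.

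The targeted gene followed the genotype labels. Epha4 measured 6.66, 6.81 and 6.52 in the sham-operated wild-type cords and 5.16, 5.19 and 5.15 in the sham-operated knockouts, and 5.87, 6.24 and 6.11 against 4.82, 4.86 and 5.10 after injury. Every knockout array lay below every wild-type array in both conditions. Its own difference of responses was 0.35 (SE 0.17), with injury responses of -0.59 in wild-type and -0.24 in knockout mice.

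Some arrays stood apart before any comparison was made. The interquartile range of probeset levels was 3.28 on the injured knockout 2 array and 3.45 to 3.63 on the other arrays. The sham-operated knockout 2 mouse was labelled male, but its Y-linked Eif2s3y and Jarid1d measured 3.25 and 3.39, whereas the other mice labelled male measured 7.21 to 8.15 and 5.60 to 5.74. A list of skeletal muscle genes averaged 5.90 on the injured wild-type 1 array and 4.45 to 4.80 on the others. Genes of pericytes, fibroblasts and meninges averaged 7.64 on the injured knockout 1 array and 6.17 to 6.80 on the other injured arrays. Myelin genes averaged 10.29 to 10.62 on all arrays. Values without single arrays are given beside the medians and calls that they moved most.

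Few genes separated the responses of the genotypes, and none did so once all genes were taken into account. At an unadjusted p below 0.01 and a difference of at least 1.2-fold, the thresholds used by the study for its own comparisons, 167 of 15830 genes were called (1.05%), 86 lower in the knockout (0.543%) and 81 higher (0.512%). A p threshold of 0.01 alone would admit 158 genes with no difference at all, so the number of calls is not itself a result. At an unadjusted p below 0.05 there were 882 genes, against 792 so expected. No gene passed a Benjamini-Hochberg adjusted p of 0.05 in limma, the smallest being 0.111 for Timm8b. The p given for a called gene is the unadjusted one, and apart from Timm8b and Inhba the adjusted p of every gene named was at least 0.821. Genes given with a standard error alone did not pass the thresholds, except Tac1 and Sry, whose permutation test was not run. Without the injured knockout 2 array 151 genes were called (64 higher, 87 lower) and without the sham-operated knockout 2 array 116 (61 higher, 55 lower). Without the injured knockout 3 array the count was 340 (227 higher, 113 lower), and once the array medians had been aligned the split was 104 higher and 59 lower. The median standard error of a difference was 0.18. Over all genes 7748 differences lay below 0 and 8082 above. The counts of list members given below are to be read against these and against the shares called, 0.543% lower and 0.512% higher.

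**Figure D1:**
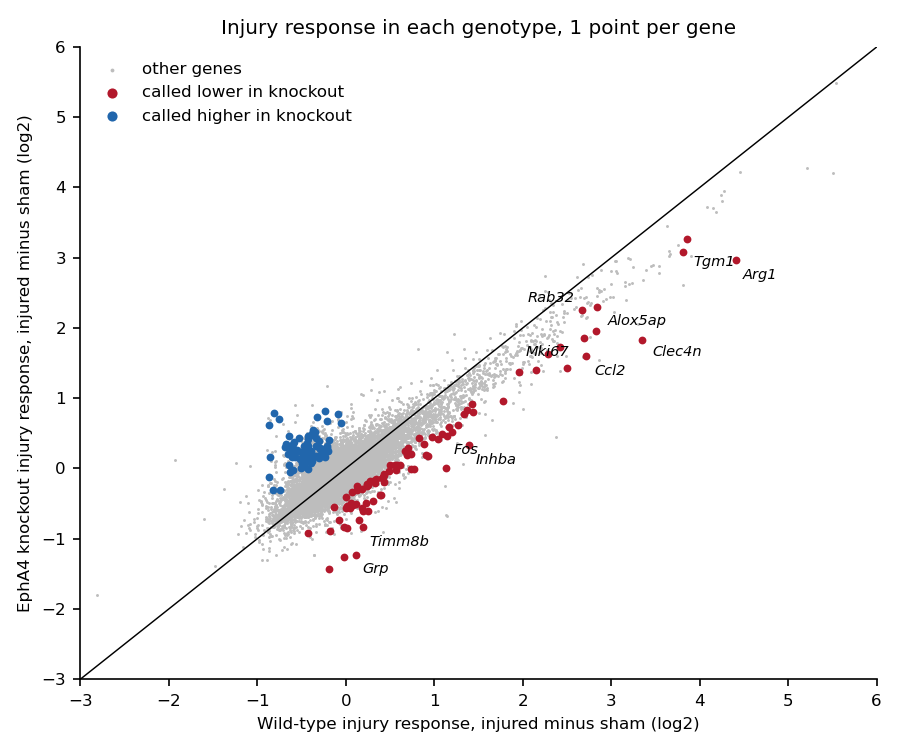
Injury response (injured minus sham-operated mean level, log2) in wild-type mice on the x axis and EphA4 knockout mice on the y axis, 1 point per gene for 15830 genes, with the line of equal response. The 86 genes called lower (red) run below the line from Grp and Timm8b to Arg1, and the 81 called higher (blue) cluster where the wild-type response was slightly negative.

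The calls were of few kinds. Of the 86 lower genes, 40 were raised in both genotypes and rose less in the knockout, 38 were up in wild-type and down in knockout mice, and 8 fell in both and further in the knockout. Of the 81 higher genes, 75 were down in wild-type and up in knockout mice and 6 fell less in the knockout, while none rose in both. The difference of responses equals the genotype difference after injury minus that in the sham-operated cords. These had opposite signs in 79 of the 86 lower genes and 78 of the 81 higher ones. Those 79 lower genes stood above wild-type in the sham-operated knockout and below it after injury. Choosing genes by a large difference between these gaps favours opposite signs. The share over all genes was not counted, so the counts are not themselves a result. The sign was the same in both conditions for the other 7 lower genes, in which the gap was the larger after injury.

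Genes that injury raised tended to rise less in the knockout. To choose these without using genotype, genes were taken by the mean of the 2 genotypes' injury responses, at an adjusted p below 0.05 and 1.2-fold. By that rule 2031 genes were raised (12.8%) and 2685 lowered (17%). Of the raised genes, 74.6% had a negative difference, with a median of -0.13, against 0.01 over all genes, and 43 were called lower and 1 higher. The gap grew with the size of the response, to a median of -0.25 in the 399 genes raised 2 to 4-fold and -0.36 in the 145 genes raised more than 4-fold. In these 145 genes the median response was 2.69 in wild-type and 2.36 in knockout mice, 92.4% lay below 0, and 10 were called lower (6.9%, against 0.543% of all genes) and 0 higher. Over the same 145 genes the median level was 4.85, 4.82 and 4.97 in the sham-operated wild-type and 4.84, 4.74 and 4.99 in the sham-operated knockout cords. After injury it was 7.90, 7.60 and 8.04 in wild-type and 7.81, 7.26 and 7.24 in knockout cords. Injured knockouts 2 and 3 thus lay below every injured wild-type array, and injured knockout 1 within their range.

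In the genes that injury lowered the median difference was 0.01 with 47.6% below 0, and it was 0.02 in the 439 genes lowered more than 1.5-fold. For the genes raised more than 4-fold the median was -0.42 within extraction batch 1 and -0.25 within batch 2, the batches that hold all 4 groups. These values rest on few arrays here and in what follows. Batch 1 had 1 array each of sham-operated wild-type, sham-operated knockout and injured knockout, the last 2 being the knockout 2 arrays that stood apart, and 2 of injured wild-type. Batch 2 had 2 of sham-operated wild-type and 1 of each other group. Among them were the muscle-rich injured wild-type 1 array and the injured knockout 1 array, which also stood apart. Over the 544 genes raised 2-fold or more it was -0.27, -0.22 without the injured knockout 2 array, and between -0.35 and -0.20 without each array in turn. Over all raised genes it was -0.24 within batch 1 and -0.06 within batch 2. These medians are descriptions, and no test was made of them.

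**Figure D2:**
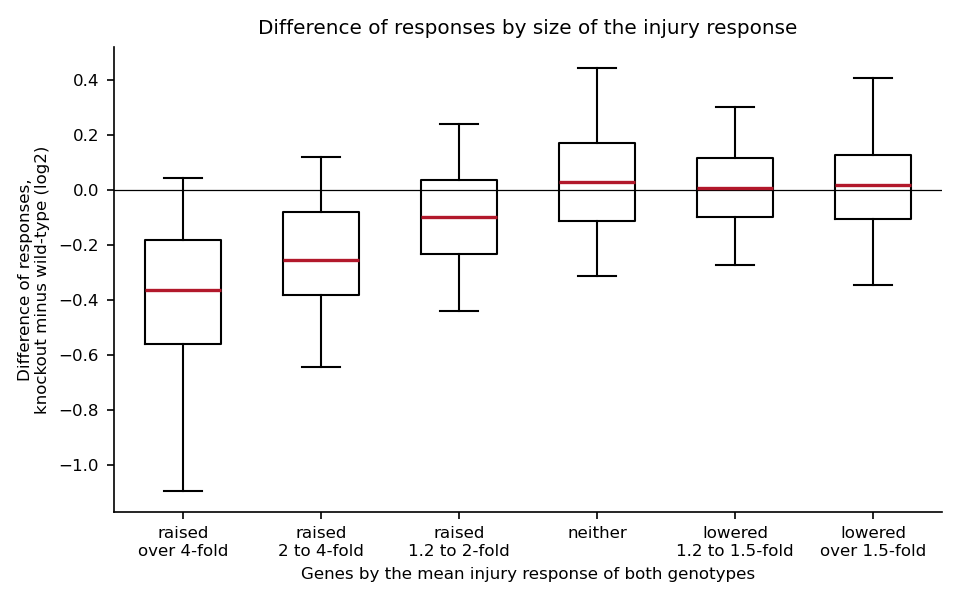
Difference of responses (knockout minus wild-type, log2) for genes grouped by the mean injury response of both genotypes. Boxes span the quartiles, red lines are medians and whiskers the 5th to 95th percentiles over genes; the medians run from -0.36 for genes raised more than 4-fold to -0.10 for those raised 1.2 to 2-fold, and lie near 0 for lowered genes.

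Among inflammation genes named here whose call was kept in all leave-one-out fits, Arg1 had the lowest difference. It encodes arginase 1, which turns arginine into ornithine and urea and is made by alternatively activated macrophages. It measured 3.90, 4.07 and 4.16 in sham-operated wild-type and 3.62, 3.83 and 4.00 in sham-operated knockout cords, and 8.38, 7.96 and 9.03 in injured wild-type against 7.34, 6.59 and 6.41 in injured knockout cords. The genotypes overlapped before injury and not after it. Arg1 rose by 4.41 in wild-type and 2.96 in knockout mice on the log2 scale, a difference of -1.45 (SE 0.37, unadjusted p = 0.00168, adjusted p = 0.853), or 2.73-fold. By exact permutation of genotype within treatment (400 arrangements, smallest possible p 0.005, two-sided) its p was 0.11. It stayed past the thresholds without each of the 12 arrays in turn and lost its call in the two-way analysis of variance.

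Alox5ap, the 5-lipoxygenase activating protein needed for leukotriene synthesis, measured 5.90, 6.06 and 5.86 in sham-operated wild-type and 6.06, 6.09 and 6.19 in sham-operated knockout cords, and 8.79, 8.56 and 8.94 against 8.27, 8.09 and 7.83 after injury. All injured knockouts lay below all injured wild-types. The responses were 2.82 and 1.95, a difference of -0.87 (SE 0.18, p = 0.000348, exact permutation p = 0.01), and it was -0.85 within batch 1 and -0.76 within batch 2. Sla, the Src-like adaptor that damps receptor signalling in lymphoid and myeloid cells, rose by 2.15 in wild-type and 1.40 in knockout mice, a difference of -0.74 (SE 0.19, p = 0.00177, exact permutation p = 0.02). Its injured levels of 6.62, 6.38 and 6.63 in wild-type were all above the 6.15, 5.94 and 5.87 of the knockouts. The call was lost with batch as a fixed term and with the median of probesets.

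Ccl2 and Clec4n had large differences that depended on single arrays. Ccl2, the chemokine that draws monocytes through the receptor CCR2, measured 7.80, 6.52 and 7.73 in injured wild-type and 5.97, 6.04 and 6.17 in injured knockout cords, with 4.35 to 4.86 in all sham-operated ones. Its difference of -1.12 (SE 0.36, p = 0.00866, exact permutation p = 0.145) passed the thresholds in only 2 of the 12 leave-one-out fits, ranging from -1.54 to -0.90. Clec4n, which encodes dectin-2, a myeloid receptor for fungal sugars, measured 7.59, 6.43 and 6.91 in injured wild-type and 6.21, 5.91 and 4.65 in injured knockout cords. Its difference of -1.51 (SE 0.49, p = 0.00867, exact permutation p = 0.03) passed in 4 of 12 such fits, from -1.82 to -1.04. In both genes the injured groups did not overlap.

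Of 26 chemokine ligands measured, Ccl2 was the 1 called, 17 lay below 0 and the median was -0.13. That median was 0.06 within batch 1, -0.33 within batch 2 and -0.03 without the sham-operated wild-type 3 array. Ccl12 and Ccl7, related ligands of the same receptor, had differences of -0.89 (SE 0.36) and -0.74 (SE 0.37), and Cxcl2, a neutrophil chemokine, -0.66 (SE 0.30). Cxcl10, induced by interferon, had 0.27 (SE 0.46).

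Markers of macrophages lay below 0 as a list, though no member was called. Of 22 markers of macrophages and phagocytes, all raised by injury, 20 had a negative difference, with a median of -0.33 and median responses of 2.38 and 2.24. Tyrobp, the signalling adaptor of myeloid receptors, had -0.56 (SE 0.23) and Itgb2, an integrin chain of leukocytes, -0.37 (SE 0.14), while Gpnmb had -0.05 (SE 0.47). The list averaged 8.42, 8.01 and 8.55 in injured wild-type and 8.27, 8.11 and 7.78 in injured knockout cords, so the groups overlapped. Its median was -0.14 within batch 1, -0.16 within batch 2 and -0.21 without the injured knockout 3 array. The 13 measured Fc receptors and signalling chains had a median of -0.27 with 11 below 0, but 0.00 within batch 1 and -0.15 within batch 2. Of 27 lysosomal genes 24 lay below 0 with a median of -0.20, or -0.07 within batch 2. Of both lists, 0 members were called.

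Among the 17 genes of alternative macrophage activation Arg1 was the 1 member called. The list's median was 0.03 and 8 members lay below 0. Chi3l3, also known as Ym1, had -1.94 (SE 0.95), and Mrc1, the mannose receptor, 0.13 (SE 0.37). The 11 immune genes that the study singled out on these same arrays all had negative differences, with a median of -0.45, and 2 of them were called, Arg1 and Sla. That list was chosen for its levels in the injured groups, so its direction is not independent evidence. Among its other members, Cflar, an inhibitor of caspase-8, had -0.50 (SE 0.18), Casp1, the inflammasome protease, -0.38 (SE 0.17), and Mapkapk2, a kinase downstream of p38, -0.24 (SE 0.15).

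**Figure D3:**
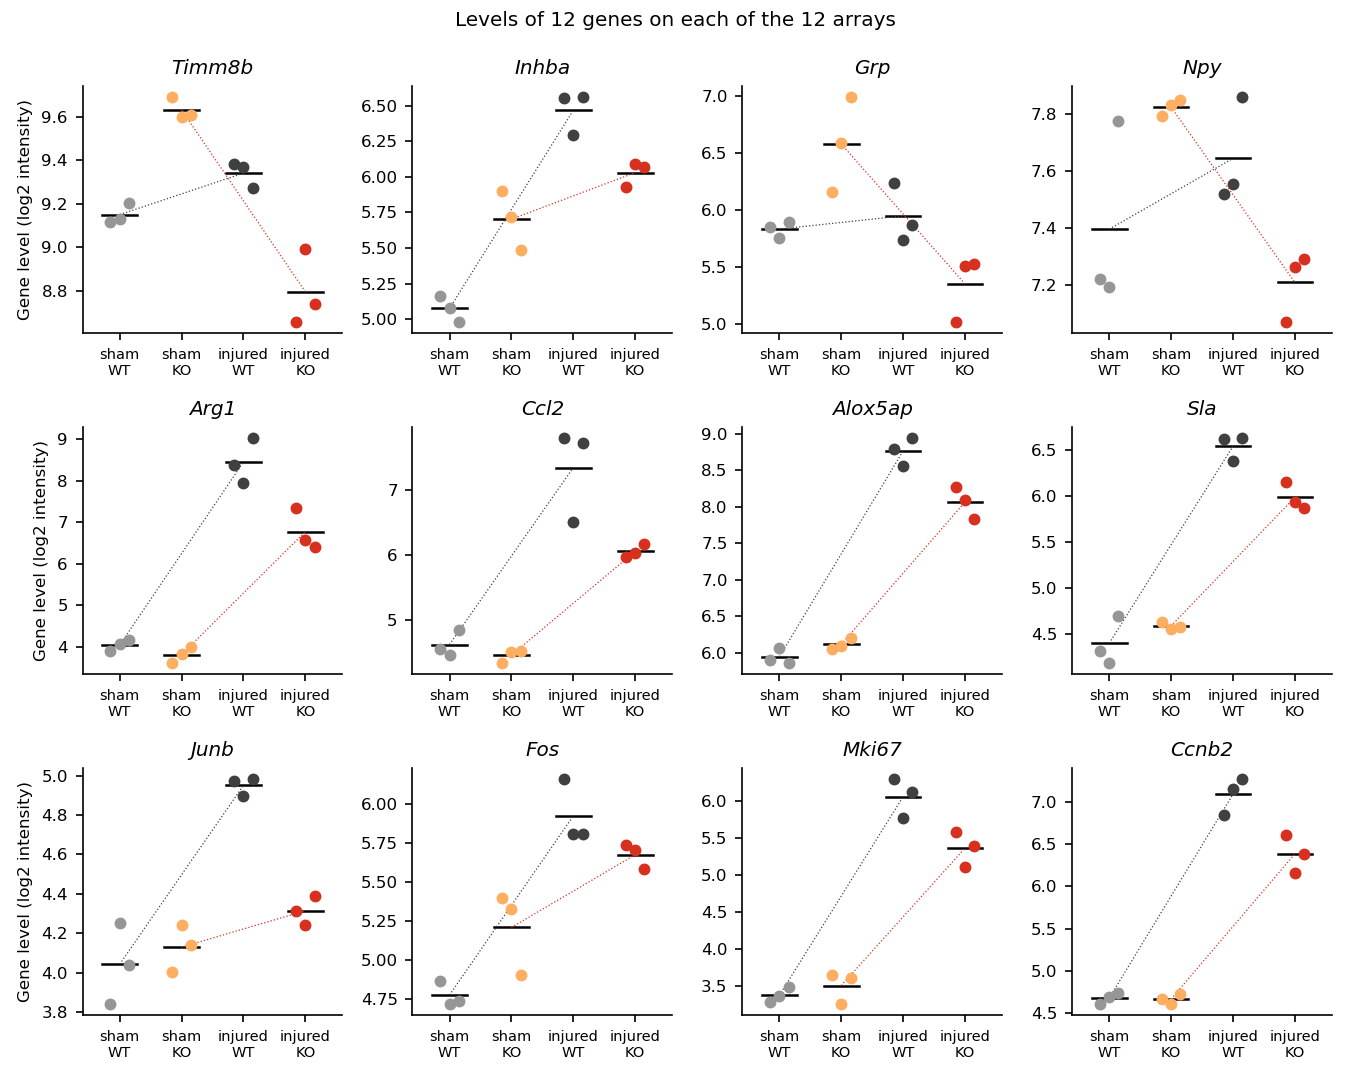
Level of 12 genes (log2 intensity) on each array, 3 points per group, with the group mean as a bar and dotted lines joining sham-operated to injured means of each genotype. Timm8b, Grp and Npy go up in wild-type and down in knockout cords, and the other 9 genes rise in both and less in the knockout.

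Of the markers of reactive astrocytes all 13 lay below 0, with a median of -0.35 and median responses of 2.40 and 1.68, and 0 were called. Lcn2, the iron-scavenging lipocalin secreted by reactive astrocytes, had -1.32 (SE 0.49), Steap4, a metalloreductase, -1.02 (SE 0.35), and Timp1, an inhibitor of metalloproteinases, -0.94 (SE 0.34). The intermediate filament gene Gfap, the classic marker of these cells, had responses of 1.07 and 1.04 and a difference of -0.03 (SE 0.15), and Cd44 had -0.01. The list averaged 8.28, 7.87 and 8.03 in injured wild-type and 7.79, 7.51 and 7.87 in injured knockout cords, with 5.42 to 5.78 in all sham-operated ones. Without the injured knockout 2 array the median was -0.19, that of macrophage markers then being -0.29, and it was -0.50 and -0.42 within the 2 batches. Of 24 genes of the scar matrix, 17 lay below 0 with a median of -0.20, led by Thbs1 at -1.20 (SE 0.60). The median was -0.48 without the injured knockout 1 array and -0.07 without the injured knockout 2 array. The list averaged 7.82 on injured knockout 1 and 6.93 to 7.49 on the other injured arrays.

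Of the 20 immediate early genes measured, 2 were called, both lower, against 0.543% of all genes called lower. Both encode parts of AP-1, the transcription factor that joins a Fos and a Jun protein. Their RefSeq promoters are shown because these are the calls of that list. Each covers 300 bases around the gene's start in GRCm38.p6, and capitals mark TGACG, the core of the cyclic AMP response element, and the TATA box TATAAA, searched on both strands. Fos lies at chr12:85473640-85473939 on the plus strand and Junb at chr8:84978699-84978998 on the minus strand, and the printed strand is that of the gene.
Fos: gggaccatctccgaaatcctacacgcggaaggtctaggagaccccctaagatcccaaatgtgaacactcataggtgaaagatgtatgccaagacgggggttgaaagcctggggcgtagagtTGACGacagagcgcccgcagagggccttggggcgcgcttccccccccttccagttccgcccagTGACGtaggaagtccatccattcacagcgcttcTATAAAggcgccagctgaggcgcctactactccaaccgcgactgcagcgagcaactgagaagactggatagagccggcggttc
Junb: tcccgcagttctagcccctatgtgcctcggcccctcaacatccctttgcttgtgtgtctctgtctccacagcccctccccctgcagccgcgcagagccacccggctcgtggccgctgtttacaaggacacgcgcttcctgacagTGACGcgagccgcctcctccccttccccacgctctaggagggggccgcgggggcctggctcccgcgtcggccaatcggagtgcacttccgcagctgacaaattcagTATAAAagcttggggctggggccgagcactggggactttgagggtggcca
The Fos window held 2 TGACG cores and 1 TATA box and the Junb window 1 of each. Of 32851 promoter windows of this length, 20.8% held the core, 13.6% the TATA box and 2.04% both.

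Junb measured 3.84, 4.25 and 4.04 in sham-operated wild-type and 4.00, 4.24 and 4.14 in sham-operated knockout cords, and 4.97, 4.90 and 4.98 against 4.31, 4.24 and 4.39 after injury. The injured knockouts lay below all injured wild-types and reached down to the range of the sham-operated cords. The responses were 0.91 and 0.18, a difference of -0.72 (SE 0.16, p = 0.000562, adjusted p = 0.821, exact permutation p = 0.035), with the call kept in all 12 leave-one-out fits. Fos stood higher in all sham-operated knockouts, by a narrow margin that was not tested. It measured 4.87, 4.72 and 4.74 in sham-operated wild-type and 5.40, 5.33 and 4.90 in sham-operated knockout cords, and 6.16, 5.81 and 5.81 against 5.74, 5.70 and 5.58 after injury. All knockouts lay above all wild-types in sham-operated mice and below them after injury, a difference of -0.68 (SE 0.20, p = 0.00411, exact permutation p = 0.005) whose call was kept in 7 of 12 such fits. It was lost with the median of probesets, with batch as a fixed term and in the two-way analysis of variance. Over the 20 genes 16 lay below 0 and the median was -0.19, or -0.12 without the sham-operated knockout 3 array. Jun had -0.29 (SE 0.23), Egr1 -0.07 (SE 0.13) and Nr4a2 0.30 (SE 0.20).

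Of the genes of cell division, 2 were called, and both rose less in the knockout. Mki67, whose product Ki-67 coats mitotic chromosomes, measured 3.25 to 3.64 over the sham-operated arrays, 6.30, 5.76 and 6.12 in injured wild-type and 5.58, 5.11 and 5.40 in injured knockout cords. Its responses were 2.69 and 1.86, a difference of -0.83 (SE 0.22, p = 0.00269, exact permutation p = 0.025). Ccnb2, cyclin B2, which drives entry into mitosis, measured 6.85, 7.16 and 7.27 against 6.62, 6.16 and 6.39 after injury, a difference of -0.70 (SE 0.19, p = 0.00242, exact permutation p = 0.065). The injured groups did not overlap for either gene, and both calls were kept in all 12 leave-one-out fits. Mki67 lost its call in the two-way analysis of variance and Ccnb2 with batch as a fixed term, being -1.06 within batch 1 and -0.25 within batch 2.

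Of the 28 mitosis genes measured, 26 were raised by injury, 25 lay below 0 and those 2 were called, with a median of -0.16. Birc5, survivin, had -0.38 (SE 0.14), Plk1 -0.28 (SE 0.17) and Ndc80, of the kinetochore, 0.39 (SE 0.27). The list's median was -0.03 without the injured knockout 2 array, -0.27 within batch 1 and -0.13 within batch 2. Of 27 DNA replication genes, 20 lay below 0 with a median of -0.17, or -0.08 without the injured knockout 2 array, and 0 were called.

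A nuclear-encoded gene of the mitochondrion gave the smallest p of the comparison. Timm8b encodes a small chaperone of the intermembrane space that carries proteins to the inner membrane. It measured 9.12, 9.13 and 9.20 in sham-operated wild-type and 9.69, 9.60 and 9.61 in sham-operated knockout cords, and 9.38, 9.37 and 9.27 against 8.66, 8.99 and 8.74 after injury. All knockouts were above all wild-types in sham-operated mice and below all of them after injury, and every injured array was on opposite sides of its sham-operated group in the 2 genotypes. The responses were 0.19 and -0.84, a difference of -1.03 (SE 0.14, p = 7e-06, adjusted p = 0.111, exact permutation p = 0.005, the smallest possible). It was -0.81 within batch 1 and -1.16 within batch 2, and -1.12 to -0.96 without each array in turn. Its adjusted p ran from 0.0138 to 0.771 over the alternatives tried.

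Tomm5, a small subunit of the import pore of the outer membrane, had the same form. It measured 6.71, 7.07 and 6.88 in sham-operated wild-type and 7.22, 7.14 and 7.09 in sham-operated knockout cords, and 6.77, 7.12 and 6.91 against 6.65, 6.64 and 6.47 after injury. The genotypes did not overlap in either condition, and the difference was -0.61 (SE 0.17, p = 0.00307, exact permutation p = 0.005), -0.80 within batch 1 and -0.24 within batch 2. The call was lost with batch as a fixed term and with the median of probesets. These were the 2 calls, both lower, among 22 import genes, of which 19 lay below 0 with a median of -0.20. Chchd4, which oxidises proteins entering the intermembrane space, had -0.62 (SE 0.21).

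The ribosome of the mitochondrion, 70 genes, had 3 called lower and 0 higher, 53 below 0 and a median of -0.21. Mrpl15, of its large subunit, measured 6.41, 6.44 and 6.32 in sham-operated wild-type and 6.67, 6.58 and 6.67 in sham-operated knockout cords, and 6.88, 6.80 and 6.78 against 6.56, 6.42 and 6.64 after injury. The groups did not overlap in either condition, and the difference was -0.53 (SE 0.13, p = 0.00136, exact permutation p = 0.005). Mrps6 had -0.62 (SE 0.18, p = 0.00492, exact permutation p = 0.05) and Mrpl22, measured by 1 probeset, -0.60 (SE 0.18, p = 0.00489, exact permutation p = 0.01). Mrps6 kept its call in 7 and Mrpl22 in 5 of 12 leave-one-out fits, and both lost it with batch as a fixed term. Mrps6 also lost it with the median of probesets, after quantile normalization and in the two-way analysis of variance. Mrpl22 lost it too in the fit on medians of probesets, although its own level, from 1 probeset, is the same there. Mrpl22 was -0.58 within batch 1 and -0.15 within batch 2. The list averaged 6.89, 7.15 and 7.15 in sham-operated wild-type, 7.05, 7.12 and 7.08 in sham-operated knockout, 6.90, 7.09 and 7.09 in injured wild-type and 6.82, 6.87 and 6.93 in injured knockout cords. Its median was -0.46 within batch 1 and -0.02 within batch 2, and -0.09 without the sham-operated wild-type 1 array. The import list had -0.50 and -0.05 within the same batches, and -0.11 without the same array. The proteasome had a median of -0.17 and 35 of 42 below 0, but -0.04 without the sham-operated wild-type 1 array and -0.04 within batch 2. Splicing factors had a median of -0.17 and 25 of 28 below 0, or -0.09 without the injured knockout 2 array, and among them Ptbp1, a repressor of neuronal exons, was called at -0.57 (SE 0.15, p = 0.00195, exact permutation p = 0.025). The 56 subunits of oxidative phosphorylation had a median of -0.10, or 0.01 without the sham-operated wild-type 1 array, and 0 calls. After quantile normalization the medians were -0.13 for the ribosome of the mitochondrion, -0.12 for import, -0.10 for the proteasome and -0.10 for splicing factors.

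Inhba had the smallest p after Timm8b. It encodes the beta A chain of activin A, a ligand of the TGF-beta family. It measured 5.16, 5.08 and 4.98 in sham-operated wild-type and 5.90, 5.72 and 5.49 in sham-operated knockout cords, and 6.55, 6.29 and 6.56 against 5.93, 6.09 and 6.07 after injury. The genotypes did not overlap in either condition and changed order between them. The responses were 1.39 and 0.33, a difference of -1.06 (SE 0.17, p = 3.12e-05, adjusted p = 0.247, exact permutation p = 0.005), -0.89 within batch 1 and -1.08 within batch 2. It was the 1 call among 24 genes of TGF-beta signalling, of which 17 lay below 0 with a median of -0.13, or -0.04 without the injured knockout 2 array.

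Among the called genes Grp, Npy and Tac1 encode neuropeptides. They were grouped after their values were known, and neuropeptides were not counted as a list. Grp encodes gastrin-releasing peptide, a transmitter of itch in the dorsal horn. It measured 5.85, 5.75 and 5.89 in sham-operated wild-type and 6.16, 6.59 and 6.99 in sham-operated knockout cords, and 6.24, 5.74 and 5.87 against 5.02, 5.50 and 5.53 after injury, a difference of -1.34 (SE 0.28, p = 0.000394, exact permutation p = 0.005). Npy, neuropeptide Y, a peptide of inhibitory dorsal horn neurons, measured 7.22, 7.19 and 7.77 in sham-operated wild-type and 7.79, 7.83 and 7.85 in sham-operated knockout cords, and 7.52, 7.55 and 7.86 against 7.07, 7.26 and 7.29 after injury, a difference of -0.86 (SE 0.21, p = 0.00133, exact permutation p = 0.005). For both peptides all knockouts were above all wild-types before injury and below them after it. That order and the exact permutation p of 0.005, the smallest possible, are the same fact. Choosing called genes favours it. Tac1, the precursor of substance P, had a difference of -0.80 (SE 0.26), with 9.02 ± 0.17 and 9.44 ± 0.28 in sham-operated wild-type and knockout cords and 9.22 ± 0.37 and 8.83 ± 0.14 after injury (SD, n = 3).

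Lists of neuronal genes differed in sign. The 15 neuronal markers had median responses of -0.42 in both genotypes and a median difference of 0.10, but -0.02 without the injured knockout 3 array, and 23 genes of synaptic vesicle release had 0.01. The 20 genes of GABA and glycine transmission had a median of -0.12 with 15 below 0, or -0.05 without the injured knockout 1 array, and 25 sodium and calcium channels had -0.08, with 0 calls in either. All 8 markers of motor neurons lay above 0, with a median of 0.16, or 0.09 without the injured knockout 2 array, and 0 were called. Slc18a3, the vesicular acetylcholine transporter, measured by 1 probeset, had 0.90 (SE 0.45) and Chat, which makes acetylcholine, 0.36 (SE 0.19). The list's levels after injury were 6.07, 5.98 and 6.12 in wild-type and 6.24 and 6.29 in injured knockouts 1 and 2, and injured knockout 3 lay within the wild-type range.

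Of 17 genes of cholesterol synthesis, 16 were lowered by injury and 15 lay above 0, with median responses of -0.62 and -0.45 and a median difference of 0.22, and 0 were called. The median gap of knockout from wild-type was -0.15 in sham-operated and 0.06 in injured cords. The list averaged 7.65 in sham-operated knockout 1 and 7.92 to 8.04 in the other sham-operated cords. After injury it averaged 7.27 to 7.53 in wild-type and 7.30 to 7.60 in knockout cords. Hmgcs1, an early enzyme of the pathway, had 0.54 (SE 0.26) and Insig1, which restrains it, 0.45 (SE 0.19). The median difference of the list was -0.09 within batch 1, 0.10 within batch 2 and 0.13 without the injured knockout 3 array. Myelin genes, 12 of 14 above 0, had a median of 0.10, -0.22 within batch 1, 0.23 within batch 2 and 0.23 without the sham-operated knockout 2 array. Of 20 interferon response genes, 12 lay above 0 with a median of 0.17, and it was 0.46 and -0.46 within the 2 batches. It was 0.05 without the sham-operated knockout 2 array and 0.34 without the injured knockout 1 array.

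The Eph system itself gave no call. Of 21 Eph receptors and ephrins, 15 lay above 0 with a median of 0.11, or -0.07 within batch 1 and 0.07 without the sham-operated knockout 1 array, and 7 were lowered by injury, and the highest value was that of Epha4. Efnb3, an ephrin of the spinal midline that EphA4 binds, had 0.31 (SE 0.20) and Ephb2 -0.05 (SE 0.13). The 17 effectors downstream of EphA4 had a median of -0.03 and the 32 guidance cues and receptors -0.01, and in both 0 were called.

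**Figure D4:**
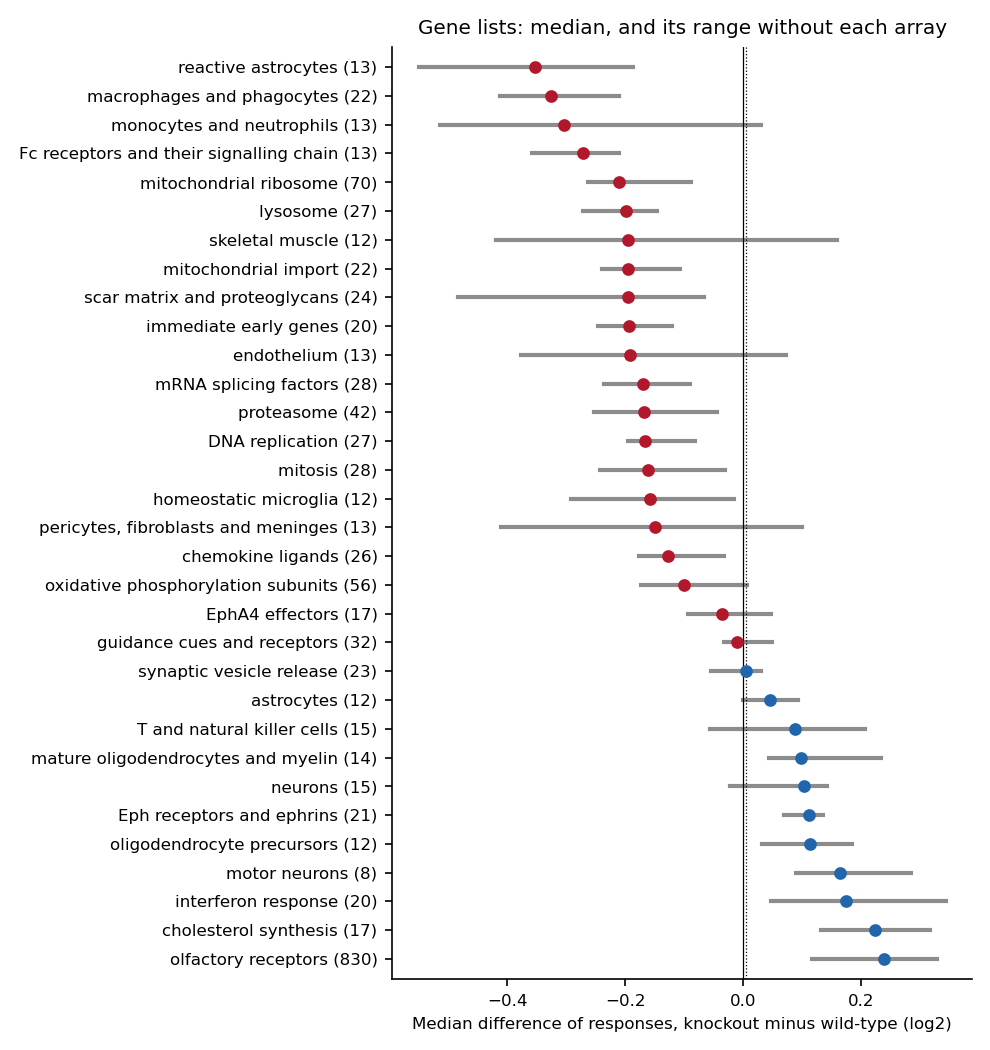
Median difference of responses (knockout minus wild-type, log2) of 32 gene lists, with the number of measured genes in parentheses. Grey bars run from the lowest to the highest median when each of the 12 arrays is left out in turn, and the dotted line is the median of all genes. With all 12 arrays reactive astrocyte and macrophage markers lie at -0.35 and -0.33 and olfactory receptors and cholesterol synthesis at 0.24 and 0.22.

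Genes called higher in the knockout were mostly dim. Ordered by mean level in 4 equal bins from dimmest to brightest, the higher calls numbered 56, 21, 2 and 2 and the lower calls 0, 22, 28 and 36. Olfactory and vomeronasal receptors, which the cord is not known to use, made up 35 of the 81 higher calls and 1 of the 86 lower. Of the higher calls 42 and of the lower calls 12 rested on 1 or 2 probesets. Among all 15830 genes, 14184 had 3 or more probesets and 830 were olfactory receptors. Vomeronasal receptors were not counted over all genes, so the 35 has no matching share. Of 830 olfactory receptors, 27 were called higher and 0 lower, with a median difference of 0.24. Olfr889, measured by 1 probeset, was at 3.97, 3.25 and 4.14 in sham-operated wild-type and 2.83, 2.90 and 3.04 in sham-operated knockout cords, and at 2.83, 3.16 and 2.77 against 3.48, 4.00 and 3.12 after injury, a difference of 1.48 (SE 0.33, p = 0.000674, exact permutation p = 0.01).

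The level of these receptors moved with the signal range of the arrays. It averaged 3.67 on the injured knockout 2 array and 3.56 and 3.58 on the sham-operated wild-type 1 and 3 arrays, the 3 arrays with the smallest interquartile ranges, and 3.21 to 3.43 on the rest. The interquartile range itself had a difference of responses of -0.13 and the olfactory mean one of 0.25. Without the injured knockout 2 array the olfactory median was 0.12, and after quantile normalization 0.09. Quantile normalization also brought the medians of mitochondrial, proteasome and splicing genes closer to 0, as given above. The part of signal range in the higher and the lower calls was not tested.

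**Figure D5:**
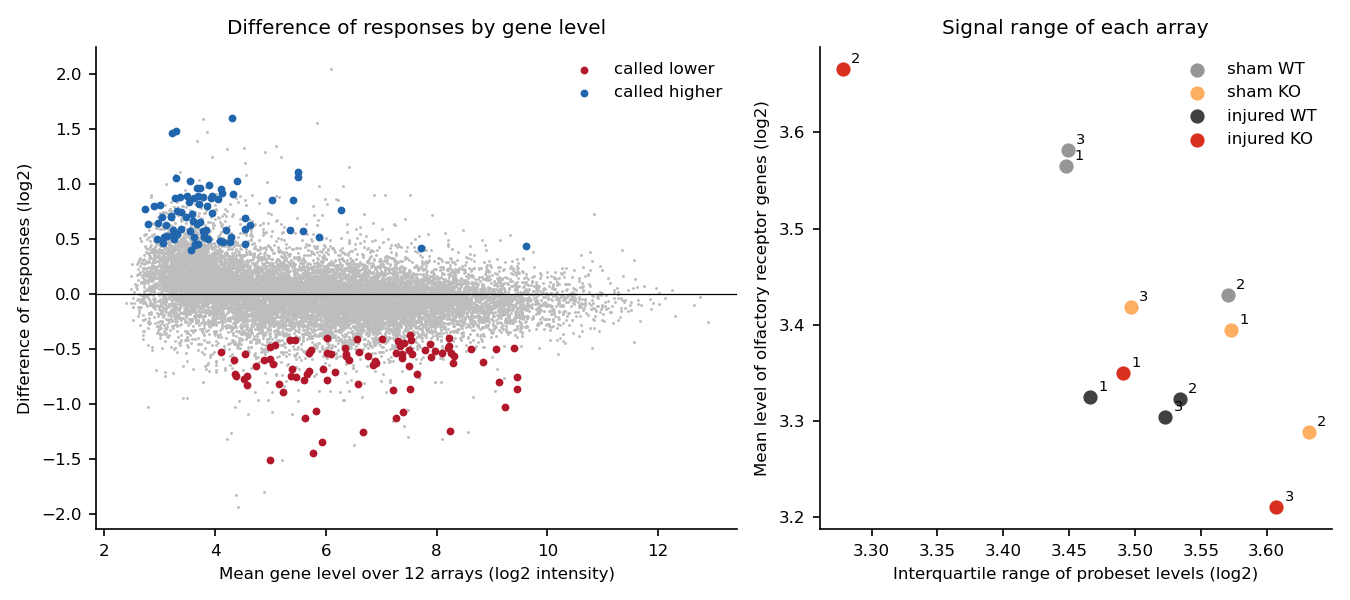
Left, difference of responses (log2) against the mean level of each gene over 12 arrays, with genes called lower in red and higher in blue. Right, mean level of 830 olfactory receptor genes against the interquartile range of probeset levels of each array, numbered by replicate, where injured knockout 2 has the narrowest range at 3.28 and the highest olfactory level at 3.67.

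A few of the genes called higher have known roles, but of these Cnr2 and Wnt6 lay in the dimmest quartile of genes by mean level. In that quartile 56 genes were called higher and 0 lower. Cnr2, the cannabinoid receptor of immune cells, measured 3.27, 3.72 and 3.49 in sham-operated wild-type and 3.03, 3.06 and 3.35 in sham-operated knockout cords, and 3.29, 3.50 and 3.53 against 3.63, 3.86 and 3.89 after injury. The injured knockouts lay above all injured wild-types, a difference of 0.70 (SE 0.19, p = 0.00304, exact permutation p = 0.01), 0.56 within batch 1 and 0.60 within batch 2. Its call was lost after quantile normalization, with the median of probesets and with batch as a fixed term. The mean level of Cnr2, 3.47, lay within the range of the olfactory receptor means, 3.21 to 3.67 over the arrays. Wnt6, a Wnt ligand, had 0.50 (SE 0.15, p = 0.005, exact permutation p = 0.005), but -0.09 with the dimmest quartile of probesets left out. Hoxd1, a patterning gene, had 0.47 (SE 0.14, p = 0.00451, exact permutation p = 0.015) and Hoxb2, of another cluster, -0.71 (SE 0.22, p = 0.00601, exact permutation p = 0.02), the only calls among 33 Hox genes. Hoxd1 kept its call in 8 and Hoxb2 in 4 of 12 leave-one-out fits. Hoxb2 was -1.21 within batch 1 and -0.01 within batch 2, and lost its call with batch as a fixed term and in the two-way analysis of variance. Sry, of the Y chromosome, named here after its value was seen, was among the higher calls at 1.10 (SE 0.34) on 2 probesets. The sham-operated knockout 2 mouse without Y-linked signal is 1 of the 3 in its group, and its part in this call was not tested.

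Outside the lists above, lower calls of known function spanned stress and metabolism. Gadd45b, a stress sensor that slows the cell cycle, rose less in the knockout, with a difference of -0.68 (SE 0.20, p = 0.00476, exact permutation p = 0.035). Txnrd1, thioredoxin reductase, had responses of 0.74 and 0.20 and a difference of -0.54 (p = 0.0062, exact permutation p = 0.005), and it lay above wild-type in all sham-operated and below in all injured knockouts. Xdh, which makes uric acid, had -0.82 (SE 0.24, p = 0.00515, exact permutation p = 0.015), Tgm1, a protein-crosslinking transglutaminase, -0.73 (SE 0.21, p = 0.00474, exact permutation p = 0.115), and Ctla2b, of a family of cathepsin inhibitors, -1.07 (SE 0.25, p = 0.000864, exact permutation p = 0.01). Rab32, a small GTPase of lysosome-related organelles, rose by 2.67 and 2.25, a difference of -0.42 (SE 0.14, p = 0.00957, exact permutation p = 0.12) that passed in 2 of 12 leave-one-out fits. Gadd45b, Txnrd1, Xdh and Tgm1 passed in 5, 6, 7 and 6 of them, and Ctla2b in all 12. Ctla2b lost its call with the median of probesets, and was -0.43 within batch 1 and -1.42 within batch 2. Gadd45b, Xdh and Tgm1 lost theirs in the two-way analysis of variance, and Xdh also with batch as a fixed term. Txnrd1 lost its call after quantile normalization and with array medians aligned. It also lost it with the median of probesets, array quality weights and batch as a random block.

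Skeletal muscle genes and blood cells could enter a dissected cord, and their lists were read for that reason. Of 12 muscle genes 10 lay below 0 with a median of -0.20, and 0 were called. The median was 0.16 without the injured wild-type 1 array, the one with the high muscle level. The 13 markers of monocytes and neutrophils had a median of -0.30 with 11 below 0, 0.27 within batch 1 and -0.41 within batch 2, and 0.03 without the sham-operated knockout 1 array. Ptprc, the pan-leukocyte marker, had -0.34 (SE 0.18). The part of these cells in the results above was not tested.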

How the data were processed

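The submitters' processing notes name RMA, Partek and mm9 for the 12 mouse exon arrays, and the authors kept the core probesets. The deposited log2 values, 1 per probeset and array, were used as they stand. Of 194262 probesets, 179614 named 1 gene, 1331 several and 13317 none, and the latter 2 kinds were left out. Levels of 15830 genes were means over probesets (median 9, 809 genes with 1), and symbols were matched to RefSeq (13745 as written, 2046 by synonym). The sources differ on the amount of RNA and on whether the left side is called injured or uninjured.

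The contrast was fitted with limma 3.58.1 in R 4.3.3 (statmod 1.5.0) on all 12 arrays in 4 groups of 3, with 8 residual degrees of freedom, and p-values were adjusted by Benjamini-Hochberg over all genes. The study's methods give no test of this contrast, so their thresholds (p below 0.01, 1.2-fold) were carried over. Named genes had an exact permutation test of genotype within treatment over 400 arrangements. It is exact for no genotype effect in either condition, not for equal injury responses. Its smallest p, 0.005, arises only where the genotypes do not overlap in either condition and change order between them. Choosing called genes favours that order, and its share over all genes was not counted. A genotype gap shared by both conditions widens the permuted spread, as for Epha4 (limma p = 0.0599, exact permutation p = 0.625). The genes named were the 12 largest differences each way among called genes with 3 or more probesets, up to 3 called members per list with the smallest p, the study's 11 genes and Epha4, and other genes are named as list members chosen after their values were seen. The 73 gene lists were described by counts and medians with no test of a list, and the lists were chosen with earlier results of these data known. Alternatives were other probeset summaries, filters, scalings, tests, sex, batch and replicate terms, and leaving out every array in turn. Where batch was a fixed term, the 2 arrays alone in their batch add nothing to the estimate. The steps were tested on simulated data. The number of arrays limits the precision.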

Additional observations from a re-analysis of the deposited data

Results flagged for a closer look

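In 7 of the named genes every injured array lay above every sham-operated array in one genotype and below every one in the other. Timm8b was the one gene of these that went up in wild-type and down in knockout mice (difference -1.03). The other 6 went down in wild-type and up in knockout mice, namely Slc10a5 (0.89), Olfr1312 (0.87), Igfl3 (0.86), Olfr862 (0.70), 4930542N07Rik (0.64) and Olfr889 (1.48). Of these 6, Igfl3 lay in the second dimmest quartile of genes by mean level and the others in the dimmest, whereas Timm8b lay in the brightest. Slc10a5, of a family of bile acid carriers, measured 4.14, 4.26 and 4.17 in sham-operated wild-type and 3.76, 3.41 and 3.70 in sham-operated knockout cords, and 3.69, 3.89 and 3.86 against 4.07, 4.42 and 3.91 after injury. The difference between the genotypes was tested in the same limma fit for all 7, and in none did it pass an adjusted p of 0.05. Of the 54 named genes 44 were called ones, a choice that favours such separation. Its share over all genes was not counted.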

How the results depend on the processing

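The 167 calls became 84 with genes below the median level left out, 321 with array quality weights, 287 with extraction batch as a fixed term and 18 at 2-fold, and the other alternatives that kept all arrays gave 127 to 203. With array medians aligned, 63.8% of the calls were higher, against 48.5% as reported. Leaving out each array gave 116 (without sham-operated knockout 2) to 340 (without injured knockout 3). At an adjusted p of 0.05 there was 1 gene, Timm8b, with genes below the median level left out, with an intensity trend and robust spread, with array quality weights and without injured knockout 2, and 1 gene, Ccl2, without injured wild-type 2, so leave-one-out gave 0 to 1. The median over raised genes was -0.24 within batch 1 and, on linear intensities, -0.11 as a fraction of each gene's mean. It was -0.19 to -0.09 without each array. The median over lowered genes was -0.085 within batch 1, -0.0017 on linear intensities and -0.044 to 0.045 without each array. Tlr6 was 0.013 with the median of probesets and Wnt6 -0.089 with the dimmest quartile of probesets left out, the only reversals among named genes. The causes of these shifts were not tested.

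Replicate numbers did not pair the mice. Over 18 same-numbered pairs of arrays the correlation of deviations was -0.30 to 0.22, and 2 arrays were closest to one of their own number. With the number as a block, 163 genes were called and the median was -0.14 over raised and 0.0081 over lowered genes. Recomputing the list medians and the median of genes raised 2-fold or more under each alternative was decided after seeing the data. Of the 44 named genes that were called, 23 kept the call without each of the 12 arrays, 18 kept it in 8 or fewer of these fits, and 10 kept it under every alternative with a test. Of the 10 named genes not called, 9 were called in some alternative.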
